A study of Sus scrofa with 11 samples.

Results

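Integrins and the focal adhesion proteins that couple them to the cytoskeleton were followed in day 10 wounds of a diabetic and a non-diabetic Yucatan minipig. A gene was included when its symbol was that of an integrin subunit by pattern (ITGA or ITGB followed by letters or digits) or when it was 1 of the named adhesion proteins (kindlins FERMT1, FERMT2 and FERMT3, talins TLN1 and TLN2, parvins PARVA, PARVB and PARVG, ILK, VCL, PXN, PTK2, ZYX and TNS1). This gave 43 of the 30376 genes in the data, namely 18 alpha subunits, 8 beta subunits, 14 intracellular adhesion proteins and 3 genes that match the pattern by name without being subunits (ITGB1BP1, ITGB1BP2, ITGBL1). The members were grouped by the cells in which they are best known, as leukocyte (10), stromal (12), epithelial (7), broadly expressed (10), platelet (1, ITGA2B) and other (3).

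Bulk poly-A libraries were made from 7 wounds of the diabetic and 4 wounds of the non-diabetic minipig, 1 for each wound. The diabetic minipig was a female given an intravenous infusion of streptozotocin, which destroys the insulin-producing beta cells, and then daily insulin that was stopped before wounding. The non-diabetic minipig was a female Yucatan that received the same dorsal biopsy punch wounds. An age is reported for the diabetic minipig only, so whether both animals were of the same age is not known. The question was how expression in healing skin differed under diabetes. Since all wounds of a group came from 1 animal, the errors and p-values below describe how wounds of one animal vary, and diabetes cannot be told apart from any other difference between both animals.

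Integrins are heterodimers of an alpha and a beta subunit that bind matrix proteins or counter-receptors on other cells. Talin and kindlin bind the beta tail and switch the receptor to its active form, and vinculin, paxillin, focal adhesion kinase, the ILK and parvin complex and zyxin tie the adhesion to actin and to signalling. In skin, integrins of the ITGB2 (CD18) family serve leukocytes, ITGB1 dimers carry fibroblasts on fibronectin and collagen, and the ITGA6 and ITGB4 dimer anchors basal keratinocytes in hemidesmosomes.

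Between 28314785 and 40168372 reads per wound fell on genes, and the values are FPKM, fragments per kilobase of gene after a scaling between libraries, as the authors deposited them. Keratinocyte markers (8 of 9 found) summed to 46.5 FPKM in diabetic replicate 4 and 266 FPKM in non-diabetic replicate 1, against 1127 FPKM or more in every other wound. Of the 7 neutrophil markers, S100A8, S100A9 and S100A12, which wound keratinocytes also express, were low in the same wounds (8.96 to 17.5 and 72.9 to 133 FPKM against 997 FPKM or more elsewhere), as was CXCR2. CSF3R was at 3.70 and 2.75 FPKM there, close to the lowest of the other wounds (3.45 FPKM), MPO was low in diabetic replicate 4 alone, and ELANE was highest in that wound. Both wounds stood apart on the first principal component (44.5% of the variance), so results are also given without them. The markers of a wounded dermis were present in every wound, with fibroblast markers summing to 19042 to 64609 FPKM and endothelial markers to 202 to 264 FPKM.

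Of the 43 members, 40 reached 0.5 FPKM in 4 or more wounds and were tested with limma on log2(FPKM + 0.5), so that fold changes of low genes are understated. A gene was called when its p-value, adjusted over all 13956 tested genes, was under 0.05 and its log2 fold change was at least 0.5 in size. Only ITGAM was called higher in diabetic wounds (1 of 40 members, with 1.35% of all tested genes called higher) and only ITGA8 was called lower (1 of 40, with 1.66% of all tested genes called lower). They were also the only tested members whose groups did not overlap, against 2.69% of all tested genes that were higher in every diabetic wound and 2.96% that were lower in every diabetic wound. Of the remaining 38 members, 21 leaned higher and 17 lower without being called, and the median log2 fold change of all 40 was 0.02, beside 0.01 for all tested genes. The members left untested for low values were ITGAD, ITGA2 and ITGB1BP2.

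**Figure D1:**
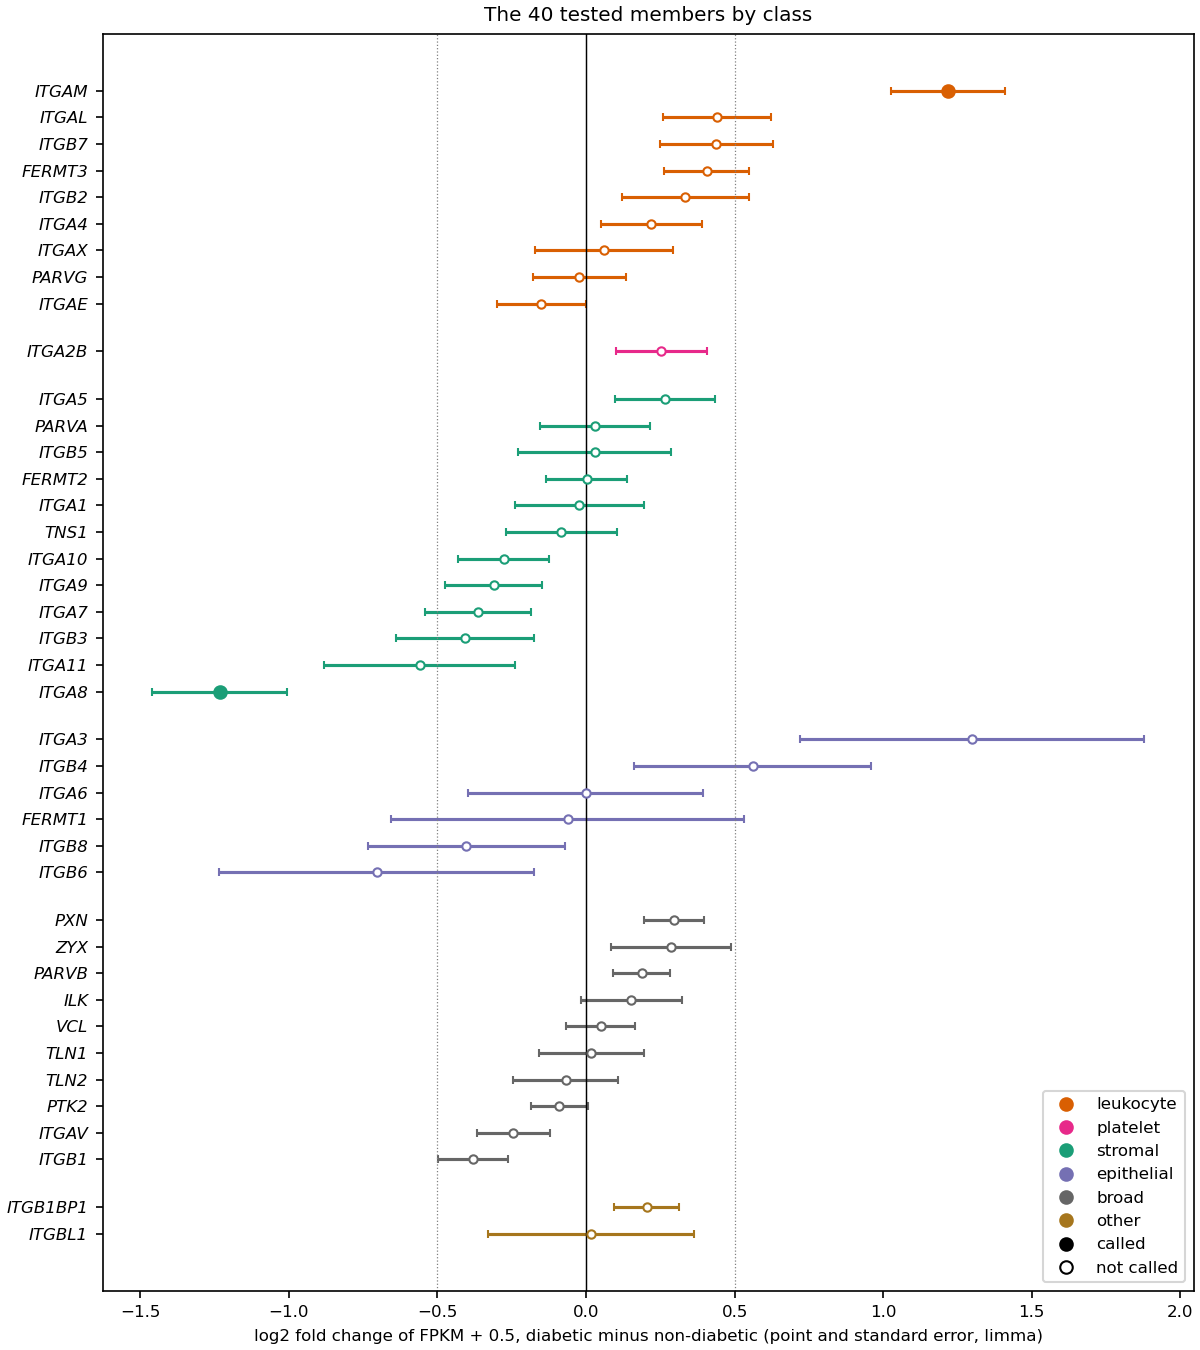
Log2 fold change of FPKM + 0.5 (x axis, diabetic minus non-diabetic) for the 40 tested members, grouped by class, with limma standard errors as bars and filled points for called genes. ITGAM at 1.22 and ITGA8 at -1.23 are filled, while ITGA3 at 1.30 lies as far out with a much longer bar (standard error 0.58).

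ITGAM encodes the alpha M chain of CD11b/CD18, the complement receptor of macrophages, monocytes and neutrophils. It lies on chromosome 3 from 17216719 to 17272134 on the minus strand (Sscrofa11.1). In diabetic wounds it ran from 2.56 to 6.34 FPKM with a median of 3.24, and the non-diabetic wounds had 1.34, 1.23, 1.35 and 1.11 FPKM. Every diabetic wound was above every non-diabetic wound, and the lowest value rested on 222 reads. The means were 3.72 ± 1.29 (SD, n = 7) and 1.26 ± 0.109 FPKM (SD, n = 4), or 1.22 higher on the log2 scale (SE 0.19; adjusted p = 0.00585, limma). Without the wounds that stood apart the change was 1.12 (adjusted p = 0.00775, limma). An uncharacterised non-coding gene on the opposite strand, LOC110259903, overlaps 39539 bases of ITGAM, and its own level overlapped between groups, at 1.19 to 2.50 against 1.02 to 2.15 FPKM. Whether the counting used the strand of the reads is not given in the sources used here.

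ITGA8 encodes the alpha 8 chain, which pairs with ITGB1 on fibroblasts, myofibroblasts and pericytes and binds nephronectin, fibronectin and osteopontin. It lies on chromosome 10 from 46132887 to 46303659 on the plus strand. In diabetic wounds it ran from 8.89 to 21.2 FPKM with a median of 12.8, and the non-diabetic wounds had 38.6, 25.6, 30.6 and 36.6 FPKM. All 7 diabetic wounds were below the lowest non-diabetic wound. The means were 14.1 ± 4.66 (SD, n = 7) and 32.8 ± 5.89 FPKM (SD, n = 4), or -1.23 on the log2 scale (SE 0.23; adjusted p = 0.0138, limma). The change was -1.26 (adjusted p = 0.0212, limma) without both wounds that stood apart, but with non-diabetic replicate 1 alone left out it was -1.15 and missed the threshold (adjusted p = 0.0548, limma). For both genes the exact two-sided permutation test over all 330 splits of the wounds gave p = 0.00303, the smallest value it allows.

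The promoters of both called members are shown because they moved in opposite directions, each from 250 bases before to 50 bases after the annotated gene start (RefSeq annotation of Sscrofa11.1), 5′ to 3′ on the gene's strand, with matches to the GC box GGGCGG on either strand in capitals. The ITGAM window is chr3:17272085-17272384 (minus strand, 55.7% GC) and the ITGA8 window is chr10:46132637-46132936 (plus strand, 66.3% GC).
ITGAM: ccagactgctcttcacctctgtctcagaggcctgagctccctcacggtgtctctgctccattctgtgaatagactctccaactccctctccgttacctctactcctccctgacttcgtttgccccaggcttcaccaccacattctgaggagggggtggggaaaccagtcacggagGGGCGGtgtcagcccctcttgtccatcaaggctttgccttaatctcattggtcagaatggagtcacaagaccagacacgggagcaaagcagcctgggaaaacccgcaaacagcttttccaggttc
ITGA8: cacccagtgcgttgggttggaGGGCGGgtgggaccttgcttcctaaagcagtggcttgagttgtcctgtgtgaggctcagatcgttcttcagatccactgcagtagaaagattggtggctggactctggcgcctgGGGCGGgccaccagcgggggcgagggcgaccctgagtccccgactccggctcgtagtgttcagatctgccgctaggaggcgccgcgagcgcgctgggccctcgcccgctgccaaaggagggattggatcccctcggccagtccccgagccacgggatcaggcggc
ITGAM held 1 GC box, which began at position -75 relative to the gene start, and ITGA8 held 2, which began at -229 and -115. Neither window held the ETS-type motif GAGGAA, the AP-1 motif TGANTCA or a CArG box on either strand. Over all members, 24 of 43 promoter windows held GGGCGG, against 48.9% of 20664 protein-coding promoters, and 17 of 43 held GAGGAA, against 26.1%. The holders of GAGGAA included leukocyte members (ITGAL, ITGB2, ITGB7) and more stromal ones (ITGA5, ITGA7, ITGA9, ITGA11, ITGB3, PARVA). The AP-1 motif was in the windows of ITGB6 and ZYX (6.35% of all promoters) and a CArG box in that of VCL alone (1.48% of all promoters).

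The leukocyte members leaned higher in diabetic wounds as a class, with 7 of 9 tested members positive and a median log2 fold change of 0.33. Over all 13956 tested genes 7302 were positive, and 8 of the 9 leukocyte members were not called. ITGB2, the beta chain that ITGAM, ITGAL, ITGAX and ITGAD share, was the most abundant of them. It ran from 18.8 to 42.8 FPKM (median 30.8) in diabetic wounds, beside 25.7, 23.7, 17.2 and 27.1 FPKM in non-diabetic wounds. The groups overlapped, with 4 of 7 diabetic wounds above the highest non-diabetic wound (log2 fold change 0.33, adjusted p = 0.446, limma). ITGAL, the alpha chain of LFA-1 on lymphocytes and most other leukocytes, ran from 3.88 to 8.76 FPKM (median 6.88), beside 5.46, 4.74, 3.93 and 4.10 FPKM. For ITGAL, 6 diabetic wounds were above all non-diabetic wounds and diabetic replicate 1 was below them (0.44, adjusted p = 0.220, limma). It was called when libraries were weighted by their quality (0.53, adjusted p = 0.0346, limma). FERMT3, the kindlin of blood cells, ran from 6.49 to 11.9 FPKM (median 8.24), beside 6.62, 6.25, 5.89 and 6.88 FPKM. Again 6 of 7 diabetic wounds exceeded the highest non-diabetic wound (0.41, adjusted p = 0.151, limma).

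ITGAX, the alpha chain of CD11c on dendritic cells and macrophages, lies next to ITGAM on chromosome 3 (17178725 to 17201388) and was not called. It ran from 5.96 to 12.3 FPKM (median 8.0) in diabetic wounds, beside 9.24, 8.02, 4.75 and 10.9 FPKM, and the groups overlapped broadly (0.06, adjusted p = 0.927, limma). The annotation lists this gene as a long non-coding RNA. ITGAD, the next gene on (17136161 to 17169776), was low throughout, with 0.141 to 0.592 FPKM (median 0.334) in diabetic wounds and 0.222, 0.241, 0.126 and 0.141 FPKM in non-diabetic wounds. The groups overlapped, and the exact two-sided permutation test gave p = 0.0545. ITGB7, which pairs with ITGA4 or ITGAE on lymphocytes, had a log2 fold change of 0.44 (adjusted p = 0.247, limma), ITGA4 one of 0.22 and ITGAE one of -0.15. PARVG, the parvin of blood cells, had one of -0.02. The platelet chain ITGA2B had 1.63 to 3.11 against 1.52 to 1.93 FPKM (0.25, adjusted p = 0.420, limma).

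General leukocyte markers did not separate the groups as ITGAM did. The 5 pan-leukocyte markers summed to 149 to 204 FPKM in diabetic and 144 to 198 FPKM in non-diabetic wounds, and none was called. All 8 macrophage markers leaned higher in diabetic wounds, where they summed to 729 to 1681 FPKM against 470 to 881 FPKM, and CD14 and MRC1 were called higher. B cell markers summed to 3.23 to 9.47 against 1.15 to 1.66 FPKM, with CD79A and CD79B called higher. Neutrophil markers were split (median log2 fold change -0.05, 3 of 6 tested positive, none called). S100A8, S100A9 and S100A12, which wound keratinocytes also express, were at -0.30, -0.31 and -0.39. CSF3R, CXCR2 and ELANE were at 0.21, 0.45 and 0.27. Neutrophil marker sums, in which these S100 genes were the most abundant, were 42.7 to 10790 against 301 to 12590 FPKM. T cell markers had a median of 0.31 (3 of 4 tested positive, none called). With the mean level of the pan-leukocyte markers as a term in the fit, ITGAM stayed called (1.27, adjusted p = 0.00687, limma). The part of macrophage, neutrophil, T cell and B cell markers in the level of ITGAM was not tested. In bulk tissue more cells of a type and more RNA per cell cannot be told apart.

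**Figure D2:**
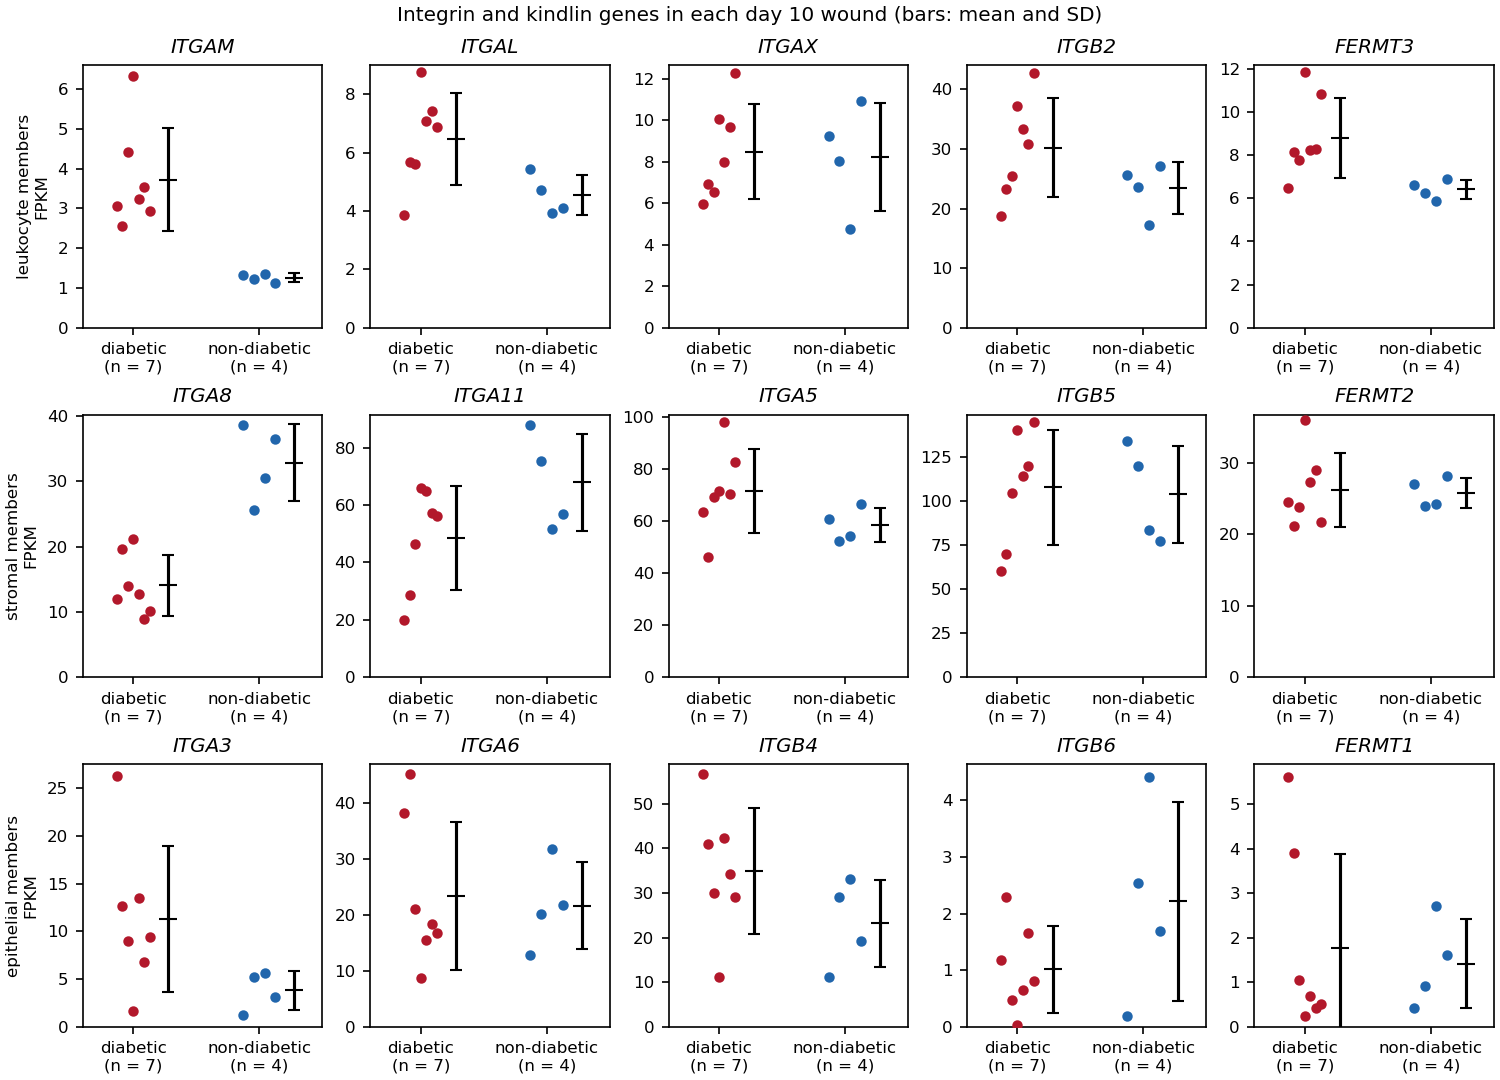
FPKM (y axes, linear from 0) of 15 leukocyte, stromal and epithelial members in each wound, with 7 diabetic wounds in red and 4 non-diabetic wounds in blue, beside the group mean and SD (the lower arm of the diabetic FERMT1 bar ends below 0 and is not drawn there). The groups are separate in ITGAM (2.56 to 6.34 against 1.11 to 1.35 FPKM) and in ITGA8 (8.89 to 21.2 against 25.6 to 38.6 FPKM) and overlap in the other 13.

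Stromal members leaned lower, with 8 of 12 negative (beside 6654 of all 13956 tested genes) and a median log2 fold change of -0.18. ITGA8 was the only one called. Of the fibroblast markers 6 of 7 were negative as well (median -0.16, none called). All 4 adipocyte markers were also negative (median -1.06, summed level 15.8 to 194 against 87.7 to 209 FPKM, LEP called lower). LEP was at 0 to 0.407 against 0.579 to 2.35 FPKM, so it met the filter for testing only through the non-diabetic wounds. Smooth muscle and myofibroblast markers leaned higher (4 of 5 positive, median 0.27, none called). Endothelial markers had a median of 0.004 (3 of 6 positive, none called). The part of these cell types in the stromal values was not tested. ITGB5, which pairs with ITGAV to bind vitronectin, was the most abundant of all members. It ran from 60.4 to 145 FPKM (median 114) in diabetic wounds, beside 134, 120, 83.3 and 77.5 FPKM, with the non-diabetic wounds inside the diabetic range (0.03, adjusted p = 0.969, limma). ITGA5, the fibronectin receptor chain, ran from 46.0 to 98.3 FPKM (median 70.6), beside 60.8, 52.5, 54.3 and 66.5 FPKM. In 5 of 7 diabetic wounds ITGA5 was above the highest non-diabetic wound and in diabetic replicate 2 it was below the lowest (0.27, adjusted p = 0.446, limma). ITGA11, the collagen receptor chain of fibroblasts, ran from 19.8 to 66.0 FPKM (median 56.3), beside 88.0, 75.5, 51.6 and 56.7 FPKM. The difference was not called (-0.56, standard error 0.32, adjusted p = 0.393, limma). The lowest ITGA11 values, 19.8 and 28.7 FPKM, were those of diabetic replicates 1 and 2, where the summed fibroblast markers were also lowest (22512 and 19042 FPKM). Of those markers PDGFRA alone went the other way, at 45.4 and 35.1 FPKM, the highest of the diabetic wounds.

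FERMT2, the kindlin of most adherent cells, had 26.2 ± 5.15 and 25.8 ± 2.09 FPKM (SD, n = 7 and 4; adjusted p = 0.996, limma). Log2 fold changes near 0 were also measured for PARVA (0.03), the collagen receptor chain ITGA1 (-0.02) and the actin-binding TNS1 (-0.08), none of them called. Larger differences without a call were seen in ITGB3, the partner of ITGAV and ITGA2B (-0.41, adjusted p = 0.390), the laminin receptor chain ITGA7 (-0.36, adjusted p = 0.309), ITGA9 (-0.31, adjusted p = 0.346) and ITGA10 (-0.28, adjusted p = 0.370; all limma). Diabetic replicate 3 carried skeletal muscle transcripts, with markers summing to 1827 FPKM against 0.956 to 5.14 FPKM in the other wounds. Its ITGA7, a chain of muscle and vascular integrins, was 26.4 FPKM and inside the range of the others, whereas ITGB1BP2, a muscle protein that binds ITGB1, was 4.26 FPKM there and 0.0362 to 0.483 FPKM elsewhere.

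Epithelial members spread widely between wounds of the same animal, and none was called. ITGA3, a laminin receptor chain of basal keratinocytes, ran from 1.60 to 26.3 FPKM (median 9.43) in diabetic wounds, beside 1.25, 5.22, 5.60 and 3.17 FPKM. In 6 of 7 diabetic wounds ITGA3 was above every non-diabetic wound, and the exception was diabetic replicate 4 (1.30, standard error 0.58, adjusted p = 0.260, limma). ITGB4, the hemidesmosome beta chain, ran from 11.2 to 56.6 FPKM (median 34.3), beside 11.3, 29.1, 33.1 and 19.4 FPKM (0.56, adjusted p = 0.503, limma). Its partner ITGA6 ran from 8.80 to 45.1 FPKM (median 18.5), beside 12.8, 20.2, 31.7 and 21.8 FPKM. The mean log2 levels of ITGA6 differed by 0.00 (standard error 0.40), with diabetic replicates 1 and 2 the highest of all wounds.

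The remaining epithelial members had fold changes below 0, none of them called. ITGB6, which with ITGAV activates latent TGF-beta in migrating keratinocytes, ran from 0.0335 to 2.30 FPKM (median 0.805) in diabetic wounds, beside 0.198, 2.55, 4.42 and 1.69 FPKM. The groups overlapped, and ITGB6 had the most negative fold change among the epithelial members (-0.70, adjusted p = 0.531, limma). ITGB8, another partner of ITGAV, had a log2 fold change of -0.40 (adjusted p = 0.573, limma). FERMT1, the kindlin of keratinocytes, ran from 0.236 to 5.60 FPKM (median 0.693), beside 0.421, 0.920, 2.71 and 1.62 FPKM (-0.06, adjusted p = 0.970, limma). ITGA2, the collagen receptor chain of keratinocytes, was at 0.0689 to 0.488 and 0.0522 to 0.384 FPKM (exact two-sided permutation p = 0.882). Diabetic replicate 4 and non-diabetic replicate 1, the wounds with the fewest keratinocyte transcripts, held the lowest ITGA3, ITGA6 and ITGB4 of their groups. With the mean level of the keratinocyte markers as a term in the fit, ITGA3 was at 0.98 (adjusted p = 0.0504, limma) and ITGB6 at -0.97 (adjusted p = 0.0944, limma), and neither was called. Without both wounds ITGA3 was at 1.28 (adjusted p = 0.115, limma) and ITGB6 at -1.03 (adjusted p = 0.202, limma).

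Members found in nearly every cell type had log2 fold changes from -0.38 to 0.29, and none was called. ITGB1, the beta chain shared by most matrix receptors, ran from 74.5 to 99.8 FPKM (median 87.2) in diabetic wounds, beside 117, 91.5, 110 and 130 FPKM. In 5 of 7 diabetic wounds ITGB1 was below the lowest non-diabetic wound (85.8 ± 10.5 against 112 ± 16.1 FPKM, SD, n = 7 and 4; -0.38, standard error 0.12, adjusted p = 0.107, limma). ITGAV, the alpha chain of the vitronectin and TGF-beta activating receptors, ran from 15.6 to 23.5 FPKM (median 18.5), beside 21.6, 18.2, 25.5 and 22.6 FPKM (-0.24, adjusted p = 0.321, limma). Paxillin (PXN), an adaptor of focal adhesions, ran from 8.64 to 11.7 FPKM (median 10.1), beside 8.74, 8.45, 7.68 and 7.98 FPKM, with 5 of 7 diabetic wounds above all non-diabetic wounds (0.29, standard error 0.10, adjusted p = 0.141, limma). Zyxin (ZYX), which marks tensed adhesions, was the second most abundant member at 67.0 to 148 against 71.6 to 104 FPKM (0.29, adjusted p = 0.496, limma).

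The remaining core of the adhesion was not called either. Log2 fold changes were 0.19 for PARVB, 0.15 for ILK, 0.05 for vinculin (VCL), 0.02 for talin 1 (TLN1), -0.07 for TLN2 and -0.09 for focal adhesion kinase (PTK2). Their adjusted p-values lay between 0.337 and 0.970 (limma). ITGBL1, a secreted protein with integrin-like repeats, had 67.5 ± 27.2 and 64.4 ± 22.5 FPKM (SD, n = 7 and 4), and ITGB1BP1, an inhibitor of ITGB1 activation, had a log2 fold change of 0.20 (adjusted p = 0.351, limma). Members that overlap another annotated gene numbered 18 of 43, among them ILK with TAF10 and TLN1 with CREB3, both abundant and on the opposite strand. ITGA1 (mean 7.07 FPKM) overlaps PELO (mean 6.59 FPKM) on the same strand, where the strand of the reads cannot separate them. Reads of such pairs may not be fully separated.

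Side by side, the class medians were 0.33 for leukocyte, -0.18 for stromal, -0.03 for epithelial and 0.03 for broadly expressed members, with 0.01 for all tested genes. In the range of each class, leukocyte members ran from -0.15 to 1.22, stromal members from -1.23 to 0.27 and epithelial members from -0.70 to 1.30. Leukocyte members made up 5.35 to 8.20% of the summed FPKM of all members in diabetic wounds and 4.75 to 6.06% in non-diabetic wounds, and stromal members 30.0 to 40.1% and 38.4 to 42.7%. Epithelial members made up 14.9 and 13.3% in diabetic replicates 1 and 2 but 1.88% in diabetic replicate 4 and 2.39% in non-diabetic replicate 1. The genes of a class share their cells of origin, so these counts and medians carry no test.

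**Figure D3:**
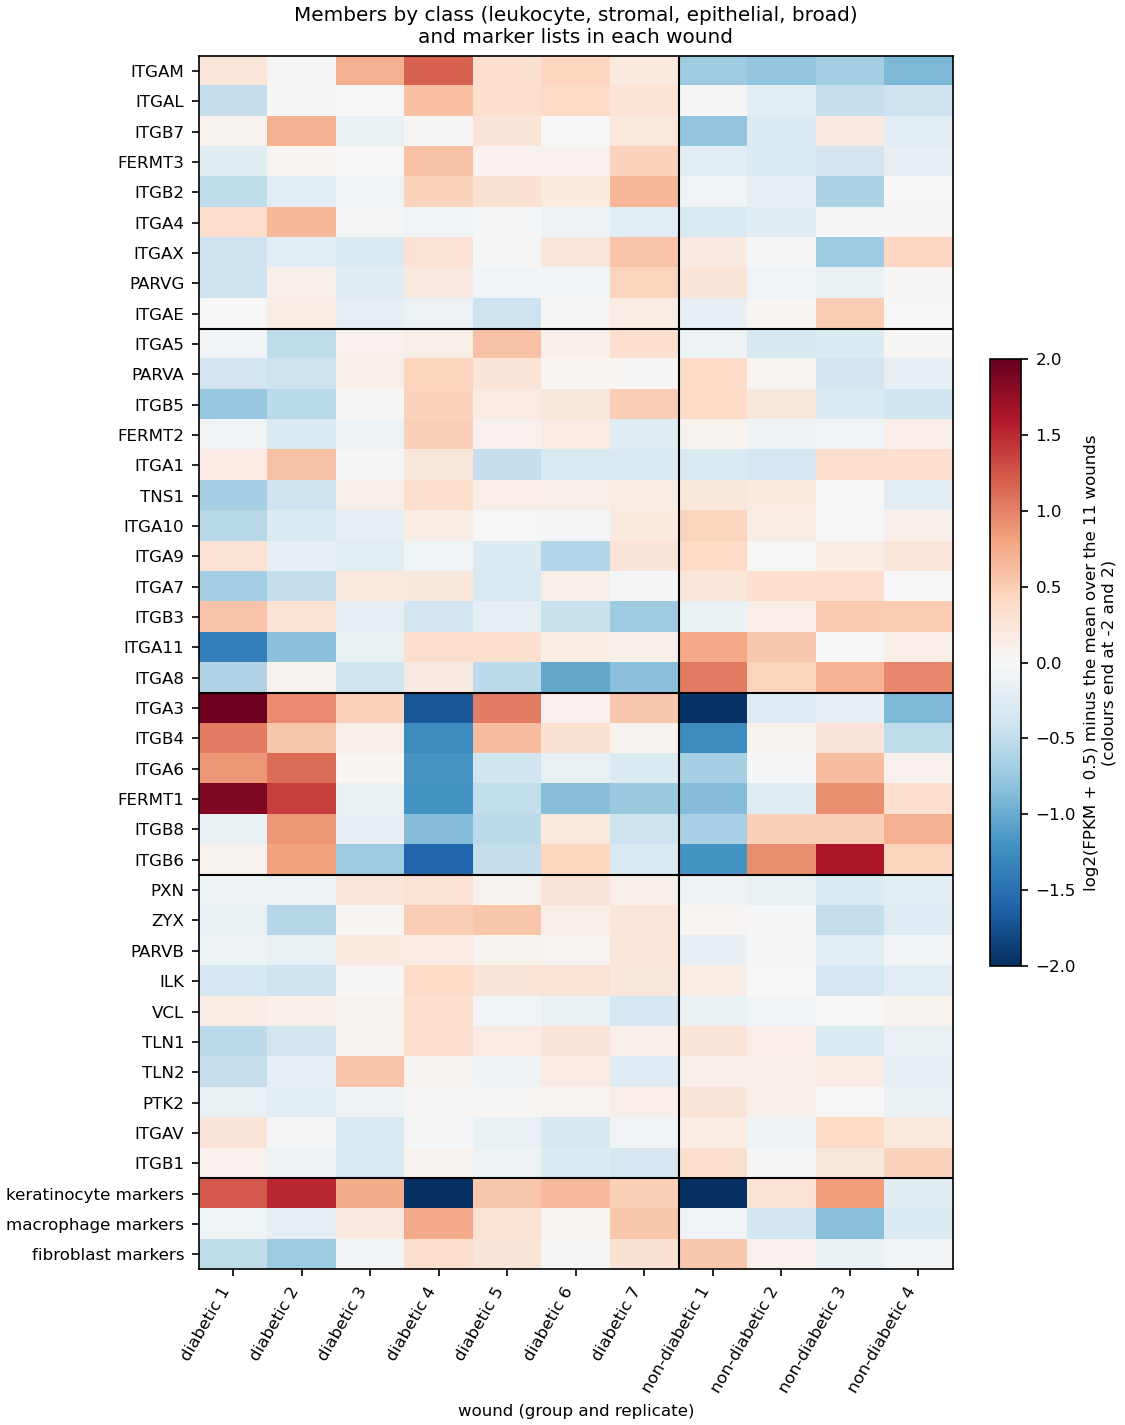
Log2(FPKM + 0.5) of the tested leukocyte, stromal, epithelial and broadly expressed members and the mean of 3 marker lists, each minus its mean over the 11 wounds (rows, colour scale in log2 units), by wound (columns, diabetic left of the vertical line). ITGAM is above its mean in all 7 diabetic wounds, barely so in diabetic replicate 2. ITGA8 is above its mean in all 4 non-diabetic wounds and slightly so in diabetic replicates 2 (19.7 FPKM) and 4 (21.2 FPKM). The epithelial block is blue throughout in diabetic replicate 4 and non-diabetic replicate 1, as are the keratinocyte markers.

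To compare partners of a heterodimer, or tissue-restricted paralogs, within each wound, 15 log2 ratios of (FPKM + 0.5) were tested by exact permutation (two-sided, 330 splits) with Benjamini-Hochberg adjustment over the 15. ITGAM rose relative to its beta chain ITGB2 and to ITGAL. ITGAM to ITGAL was -1.11 to -0.30 in diabetic and -1.70 to -1.26 in non-diabetic wounds, so the groups were separate (difference 0.78, exact adjusted p = 0.0455). ITGAM to ITGB2 (0.88, exact adjusted p = 0.0455) and ITGAM to the leukocyte phosphatase PTPRC (1.23, exact adjusted p = 0.0455) also passed, with overlapping groups. ITGAL to ITGB2 differed by 0.11 (exact adjusted p = 0.587), ITGB2 to PTPRC by 0.35 (exact adjusted p = 0.568) and ITGAX to ITGB2 by -0.28 (exact adjusted p = 0.0649). As ITGAM and ITGA8 were already known to differ, their ratios are not independent evidence for either gene.

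Among the ITGB1 partners, the ratios moved in different directions. ITGA8 to ITGB1 was -3.05 to -2.13 in diabetic and -1.83 to -1.59 in non-diabetic wounds, with no overlap (-0.85, exact adjusted p = 0.0455). ITGA5 to ITGB1 was -0.92 to 0.17 in diabetic and -1.01 to -0.79 in non-diabetic wounds, where only diabetic replicate 2 lay in the non-diabetic range (0.65, exact adjusted p = 0.0455). ITGA3 to ITGB1 differed by 1.68 (exact adjusted p = 0.0795) and ITGA11 to ITGB1 by -0.18 (exact adjusted p = 0.780). Between kindlins, FERMT3 to FERMT2 was -1.84 to -0.97 in diabetic and -1.96 to -1.85 in non-diabetic wounds, without overlap (0.40, exact adjusted p = 0.0455). FERMT1 to FERMT2 differed by -0.06, PARVG to PARVA by -0.05, ITGA6 to ITGB4 by -0.56 and ITGB6 to ITGAV by -0.46 (exact adjusted p from 0.126 to 0.927). The 6 ratios that passed lie close to the threshold, since 0 passed with a pseudocount of 1 FPKM and 0 to 3 with any 1 wound left out, where fewer splits are available.

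**Figure D4:**
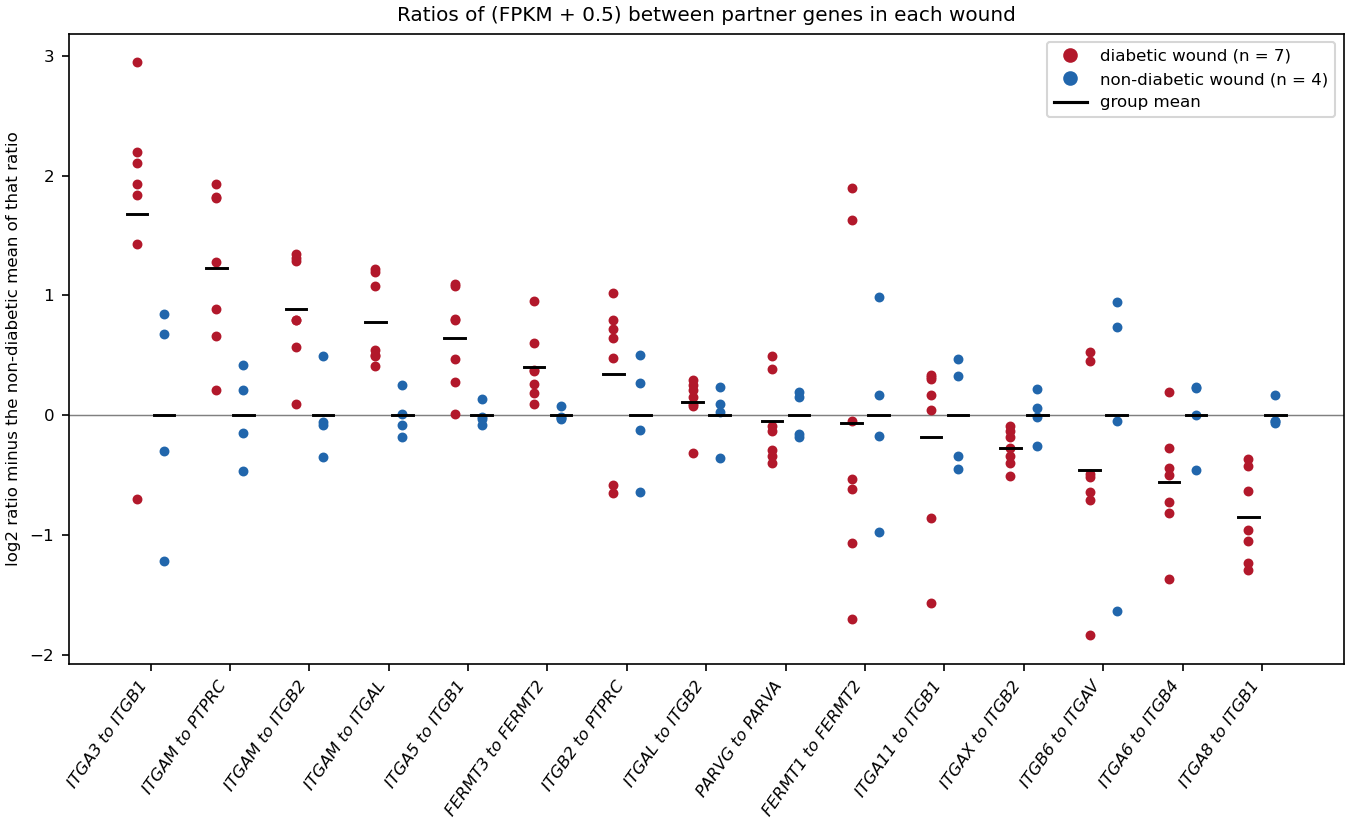
Log2 ratios of (FPKM + 0.5) of 15 gene pairs in each wound (y axis, minus the non-diabetic mean of that ratio), with diabetic wounds in red, non-diabetic wounds in blue and group means as black lines. The groups are separate in ITGAM to ITGAL (difference 0.78), FERMT3 to FERMT2 (0.40) and ITGA8 to ITGB1 (-0.85), and ITGA3 to ITGB1 has the largest mean difference (1.68) with overlapping wounds.

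Integrin ligands and counter-receptors were examined as a list of 41 genes, of which 40 were found and 36 tested. In it 1 gene was called higher and 2 lower (1.35% and 1.66% of all tested genes), and 2 were higher and 3 lower in every diabetic wound (2.69% and 2.96% of all tested genes). LAMA5, a laminin chain of basement membranes, was the only one called higher (0.70, adjusted p = 0.0126, limma). It was at 13.4 to 18.6 FPKM (median 17.3) in diabetic wounds and 7.95, 11.2, 11.6 and 9.25 FPKM in non-diabetic wounds. In the wounds with the fewest keratinocyte transcripts LAMA5 was 14.2 FPKM (diabetic replicate 4) and 7.95 FPKM (non-diabetic replicate 1), the latter the lowest of all wounds. The part of keratinocyte content in the LAMA5 values was not tested. The groups did not overlap. SPP1 (osteopontin), a ligand of ITGA8 and of the ITGAV dimers, was called lower, at 18.3 to 52.0 FPKM (median 37.6) against 92.5, 147, 71.1 and 180 FPKM (-1.90, standard error 0.36, adjusted p = 0.0160, limma). LAMA1, another laminin chain, was called lower as well, at 0.0758 to 0.335 FPKM (median 0.108) against 0.995, 1.07, 0.863 and 0.599 FPKM (-1.10, adjusted p = 0.00157, limma). At this low level the size of the LAMA1 change depended on the pseudocount, at -2.06 with 0.1 FPKM and -0.72 with 1 FPKM, and was -2.69 with voom on recovered reads, each called lower. LAMA1 met the filter for testing only through the non-diabetic wounds, the group in which it was higher. With no filter on low values LAMA1 was still called lower (-1.10, adjusted p = 0.00159, limma). SPP1 was not called without non-diabetic replicate 2 (adjusted p = 0.0543, limma) or 4 (adjusted p = 0.0554, limma).

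Fibronectin (FN1), bound by ITGA5 and ITGA8 dimers, and VCAM1, bound by the ITGA4 dimers, were also separate between groups without being called, and were chosen for mention after their values were seen. FN1 was at 436 to 696 against 783 to 1041 FPKM (-0.59, adjusted p = 0.0567, limma), and VCAM1 at 45.0 to 62.0 against 34.7 to 43.8 FPKM (0.43, adjusted p = 0.0482, limma, below the size required for a call). The median log2 fold change of the list was 0.02, with 18 genes positive and 18 negative.

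A list of 60 further adhesome and integrin signalling genes, of which 59 were found and tested, leaned higher. Of these 42 of 59 were positive with a median of 0.10, beside 7302 of all 13956 tested genes positive and a median of 0.01. CD82, a tetraspanin that associates with integrins, was the only gene called (1 of 59, beside 1.35% of all tested genes called higher), at 37.4 to 56.5 FPKM (median 46.9) in diabetic wounds against 22.8, 32.5, 20.9 and 35.4 FPKM (0.77, standard error 0.17, adjusted p = 0.0323, limma). Its groups were separate, as were those of 6 other genes of the list, all higher in diabetic wounds (7 of 59, beside 2.69% of all tested genes, and 0 of 59 lower, beside 2.96%). CD82 lost its call in 10 of 27 alternatives, among them the 1 without both wounds that stood apart (0.64, adjusted p = 0.134, limma) and those without diabetic replicate 3, 5 or 7 or non-diabetic replicate 1 or 3.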

How the data were processed

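Poly-A RNA of 11 wounds was sequenced as directional libraries. The submitters' processing notes name fastp, HISAT2 2.2.1, StringTie 2.2.3 and featureCounts 2.0.6, and the build Sscrofa11.1. The deposited FPKM values were made by the authors from gene counts and gene length, and their formula and annotation release are not given in the sources used here. The divisor implied per library lay above the reads on genes in some libraries and below them in others, so the values carry a scaling between libraries other than the plain read total. The deposited table also gives each gene's length in bases as the authors annotated it, under other information. Multiplied by that length, 100.0% of the FPKM values per library came out as whole reads within 0.05 reads. The authors tested raw counts with DESeq2, and as FPKM were deposited, limma took its place here with the same thresholds. No per-sample column was left unused (0).

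Group (7 diabetic, 4 non-diabetic wounds, 1 animal each) was the only term, with lmFit, eBayes with trend, a pseudocount of 0.5 FPKM and Benjamini-Hochberg adjustment over the 13956 genes at 0.5 FPKM or more in at least 4 libraries. For a gene 2 kb long, 1 read was worth 0.0112 to 0.0194 FPKM. Members under this filter, and 15 gene ratios, were compared by two-sided exact permutation tests. The wounds of a group come from 1 animal, so p-values measure only the spread between wounds. All 43 members had the same identifier and start in the NCBI annotation of Sscrofa11.1, which gave positions, overlaps and promoters. Values by wound are given for called members, members whose groups do not overlap, the most abundant member of each class, members of the ratios and members named in the paper, and, of the 2 pathway lists, for called genes. Values of ITGAD, ITGA2, ITGAV, PXN, ZYX, FN1 and VCAM1 by wound or range lie outside this rule and were chosen after seeing them. Members, classes and lists were chosen with earlier results of these data known.

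Alternatives changed the pseudocount, filter, scaling, spread estimate, library weights, the wounds included and the test (voom on recovered reads), or added the replicate number, the letter of the library name or marker levels as a term. The fit was tested on simulated data. Fits used limma 3.58.1 in R 4.3.3, and permutation tests, tables and figures used SciPy 1.17.1, pandas 2.3.3, numpy 2.4.6 and matplotlib 3.10.9 in Python 3.11.15.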

Additional observations from a re-analysis of the deposited data

Results flagged for a closer look

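Of 86 groups of wounds examined (43 members in 2 groups), 3 held a wound whose gap to its nearest neighbour exceeded Dixon's critical value, and chance flags about 1 in 20 groups. ITGB4 was 11.2 FPKM in diabetic replicate 4, the lowest of its group, with the next wound at 29.2 FPKM, and this wound also had the lowest keratinocyte markers (46.5 FPKM). ITGB1BP2 was 4.26 FPKM in diabetic replicate 3, the highest of its group, with the next at 0.483 FPKM, and this wound had skeletal muscle markers of 1827 FPKM. TLN2 was 0.695 FPKM in non-diabetic replicate 4, the lowest of its group, with the next at 0.960 FPKM. The part of muscle content in the ITGB1BP2 value was not tested.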

How the results depend on the processing

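ITGAM was called higher in 26 of 27 alternatives (log2 fold change 1.03 to 1.51) and ITGA8 lower in 25 of 27 (-1.34 to -0.97). With the replicate block, 0 members, 0 ligands and 0 adhesome genes were called in either direction (ITGAM 1.32, adjusted p = 0.214; ITGA8 -0.97, adjusted p = 0.324, limma), and over all genes 11 were called higher and 5 lower, against 188 and 231 without it. Correlations between same-numbered wounds were -0.27, 0.22, 0.07 and -0.48, too few to settle what the numbers mean. As the groups came from different animals, the numbers were taken only to name wounds. The block also leaves few wounds to estimate the spread. With library weights 2 members were called higher, and over all genes 406 higher and 416 lower, and voom on recovered reads called 149 and 259. With any 1 wound left out, 1 member was called higher each time and 0 to 1 lower (0 without non-diabetic replicate 1). The class medians kept their sign in all 27 for leukocyte (0.25 to 0.44) and stromal members (-0.25 to -0.13), while the epithelial median ran from -0.37 to 0.33 and the broad one from -0.05 to 0.10. In the ligand list, the genes called lower numbered 5 with quantile normalisation, TPM or library weights, 4 with upper-quartile scaling or the keratinocyte covariate, 1 with a filter at 1 FPKM and 1 to 4 with a wound left out, where 1 to 2 were called higher. In the adhesome list, 0 were called higher with quantile normalisation, with the library letter as a term or without diabetic replicate 4 and non-diabetic replicate 1 together, and 0 to 2 with a wound left out. Of the 15 ratios, 0 passed with a pseudocount of 1 FPKM or without both of those wounds, and 0 to 3 with 1 wound left out (3 without diabetic replicate 1, 2, 4 or 7, otherwise 0), where fewer splits limit the p-value. The causes of the other shifts were not tested. Rescaling to TPM lowered the share of higher calls over all genes from 44.9% to 34.2%, and no scaling moved the median of all genes by over 0.1. Depth limits ITGAD, ITGA2 and ITGB1BP2, which rested on 83, 233 and 237 reads at most.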
